A study of Homo sapiens with 12 samples.

Results

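Described here are 10 genes of bone morphogenetic protein (BMP) signalling and its immediate response, followed through neural differentiation of H9, a human embryonic stem cell line, in wild-type cells and in cells labelled SOX21-/-. They were taken by gene name from the deposited expression table and are 10 of its 58219 genes: the ligand genes BMP4 and BMP7, the inhibitor genes BAMBI, SMAD6 and SMAD7, the response genes ID1, ID2, ID3 and ID4, and the homeobox gene MSX1. Poly(A) RNA was sequenced from wild-type H9 cells (libraries WT1 and WT2) and from H9 cells labelled SOX21-/- (libraries S13 and S23), each at days 0, 4 and 8, which gives 12 libraries in 6 groups of 2. SOX21 is a SOX-family transcription factor gene active in neural progenitors, and the series asks what it does early in neural differentiation. The differentiation medium, the SOX21 alleles, and whether S13 and S23 are separate clones or a name repeated at another day is the same culture are not given in the sources used here. The p-values therefore measure only the spread between these libraries.

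BMP ligands are secreted proteins that bind paired receptor kinases at the cell surface. The receptors phosphorylate SMAD1, SMAD5 and SMAD9, which join SMAD4 and act on target genes in the nucleus. Among the targets are the ID genes, whose products bind E proteins such as TCF3, TCF4 and TCF12 and keep them from DNA, and genes that restrain the pathway itself: BAMBI encodes a receptor-like protein without a kinase, and SMAD6 and SMAD7 encode inhibitory SMADs. In embryonic ectoderm, low BMP signalling favours neural fate. Later, BMPs made at the dorsal midline pattern the dorsal neural tube and forebrain, where MSX1 marks dorsal cells.

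The promoter sequences of 4 genes that the results turn on are shown first: BAMBI and SMAD6, which differed between genotypes at day 8 and carried motifs, ID4, which differed most clearly, and ID1, which differed most between the 2 libraries of a group. Each runs 5′ to 3′ on the gene's strand, here the plus strand for all 4, within the 250 bases before the RefSeq start on GRCh38.p14, and stops at the first annotated exon or 4 bases into it where a motif crosses that border. Capitals mark GGCGCC, a GC-rich element known to bind BMP-activated SMADs, and GTCTAGAC, the palindromic SMAD-binding element.
BAMBI promoter, chr10:28677271-28677345: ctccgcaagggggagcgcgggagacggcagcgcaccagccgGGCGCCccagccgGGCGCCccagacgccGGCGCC
SMAD6 promoter, chr15:66701986-66702231: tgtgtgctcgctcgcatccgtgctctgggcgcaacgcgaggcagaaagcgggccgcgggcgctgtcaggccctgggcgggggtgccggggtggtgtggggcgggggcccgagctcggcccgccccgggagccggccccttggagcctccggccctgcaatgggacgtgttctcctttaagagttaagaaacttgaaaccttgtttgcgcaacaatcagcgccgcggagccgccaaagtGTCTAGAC
ID4 promoter, chr6:19837120-19837369: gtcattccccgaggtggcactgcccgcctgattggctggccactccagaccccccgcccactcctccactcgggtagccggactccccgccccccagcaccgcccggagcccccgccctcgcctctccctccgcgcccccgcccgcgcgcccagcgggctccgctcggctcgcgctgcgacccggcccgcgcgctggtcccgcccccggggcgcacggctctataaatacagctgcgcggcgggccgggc
ID1 promoter, chr20:31605039-31605282: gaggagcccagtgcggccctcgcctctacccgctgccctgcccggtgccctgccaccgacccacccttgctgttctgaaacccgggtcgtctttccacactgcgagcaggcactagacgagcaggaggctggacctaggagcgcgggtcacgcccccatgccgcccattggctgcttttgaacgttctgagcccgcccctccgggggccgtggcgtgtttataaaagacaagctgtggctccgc
The BAMBI window held 3 copies of GGCGCC, at -209 to -204, -196 to -191 and -181 to -176 from the RefSeq start. The gene start in GENCODE v29, 28677342, lies within this window, and the last copy crosses it. SMAD6 held 1 GTCTAGAC, at -12 to -5. The motifs were searched on both strands, together with GGCGCC followed by GTCT with any 5 bases between them, which contains the first motif. Of the 10 genes, 9 matched the promoter table, with 13 windows, all but BMP7. Of the other windows, 1 of the 3 of BMP4 held GGCGCC at -232 to -227, and those of ID1, ID2, ID3, ID4, SMAD7 and MSX1 held none of the 3 motifs in these 250 bases. Over all 35116 promoters of the table, 16.4% held GGCGCC, 0.182% held GTCTAGAC and 0.0769% held the spaced pair. The 250 bases of the BAMBI window, of which 75 are printed, were 81.2% G and C, against a median of 58.0% over all promoters of the table. A motif of only G and C is likelier in such a window, and the 16.4% takes no account of this. The matches describe letters and not binding.

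Values were in TPM, which gives a gene's length-corrected share of all transcripts. Each library has an equal total, so read depth is unknown. Differences are given on the log2(TPM + 1) scale, which understates changes of low genes, and a gene was called where limma's Benjamini-Hochberg adjusted p over the 24248 genes tested was under 0.05. All 10 genes passed the filter of at least 1 TPM in at least 2 libraries. The markers bore out the stage labels: POU5F1, a pluripotency factor, ran from 1507 to 1744 TPM at day 0 and from 0.283 to 1.41 at day 8, and PAX6, a neural progenitor factor, was at or under 0.325 TPM at day 0 and at 93.3 or more at days 4 and 8. SOX17, an endoderm factor, was listed at 0 in all 12 libraries. SOX21 itself did not bear out the genotype label at the mRNA level. At day 8 it stood at 129 and 100.04 TPM in wild type, 253 in S13 and 69.9 in S23, and limma did not call it at any day. Whether its reads come from outside the altered part of the gene was not tested, so S13 and S23 are called the libraries labelled SOX21-/-. The share of TPM on nuclear protein-coding genes was 55.9% to 56.4% at day 0 and 83.5% to 87.1% later, and the median gene moved by 0.91 in wild type and by 0.72 in the SOX21-/- libraries from day 0 to day 4, so changes over that step are read against these shifts.

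At day 8, 3 of the 10 genes were called between genotypes: ID4, BAMBI and SMAD6 were higher in the libraries labelled SOX21-/-, where 1.47% of all genes tested were called higher and 2.79% in either direction. The groups did not overlap for those 3 and for BMP7 and SMAD7, all above wild type, against 21.4% of all genes, and for ID2, below wild type, against 21.7%. The median difference of the 10 genes was 0.84, with a median of 0 over all genes tested. That median leaned on S13. Without S13 at day 8, ID1, ID3 and MSX1 turned to -0.47, -0.86 and -0.013, and ID2 stood at -1.93. BMP4 and BMP7 fell to 0.077 and 0.055. BAMBI (1.19), SMAD6 (1.15) and SMAD7 (0.71) stayed above wild type, as did ID4 (at least 1.20 with any library left out). At day 4, 0 of the 10 were called by limma, where 0.775% of all genes were. An unadjusted p under 0.05 was reached by 2 of the 10 and by 4107 of the 24248 genes tested. The groups of that day did not overlap for 2 genes above wild type (11.1% of all genes) and 3 below it (33.8%). Day 0 likewise gave 0 of 10 called, where 0.384% of all genes were. There, 1 of the 10 and 1425 of the 24248 genes tested had an unadjusted p under 0.05. Without overlap, 4 genes lay above wild type at day 0 (15.7% of all genes) and 1 below it (14%). All 3 day 8 calls were lost when the fit held only the 4 day 8 libraries, with adjusted p of 0.0703 for ID4, 0.179 for BAMBI and 0.177 for SMAD6.

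**Figure D1:**
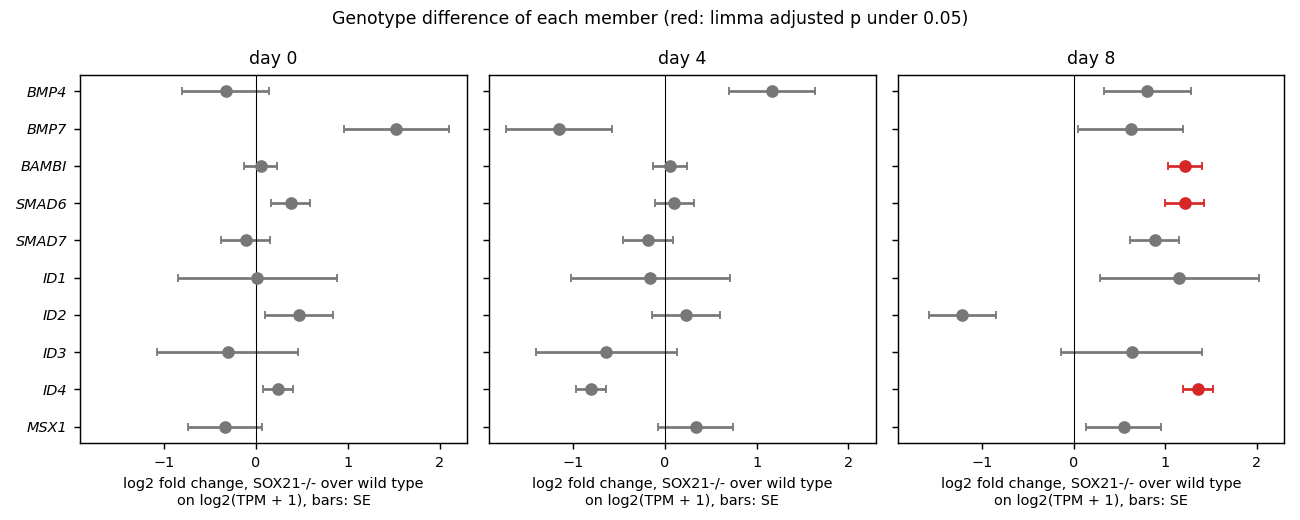
Log2 fold change of each of the 10 genes, libraries labelled SOX21-/- over wild type, at days 0, 4 and 8, on the log2(TPM + 1) scale with bars of 1 SE from limma; red points have an adjusted p under 0.05. The red points stand at day 8 only, for BAMBI (1.21), SMAD6 (1.21) and ID4 (1.36).

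Across days, the calls did not follow the size of a change alone. In wild type from day 0 to day 4, ID1 (-1.64) and BMP7 (1.34) moved further than BAMBI (-0.74), yet only BAMBI of these was called. From day 0 to day 4, ID2 and ID4 rose and BAMBI fell in wild type (3 of 10 called, where 65.7% of all genes were, 54.3% up and 11.4% down), and the same 3 and BMP4, which rose, were called in the SOX21-/- libraries (4 of 10, where 60.6% of all genes were, 48.1% up and 12.5% down). Under median-of-ratios scaling, which takes out the shift of the median gene, 1 rose and 3 fell in wild type, and 2 rose and 5 fell in the SOX21-/- libraries. Of all 24248 genes tested, that scaling gave 5583 up and 6560 down in wild type, and 5407 up and 6363 down in the SOX21-/- libraries. From day 4 to day 8 ID4 alone was called in wild type (12.6% of all genes were, 7.62% up). In the SOX21-/- libraries over that step, ID4, BMP7, BAMBI and SMAD6 rose and ID2 fell (5 of 10, where 26.1% of all genes were called, 19% up and 7.15% down). The median gene moved by 0.20 over that step in those libraries, and median-of-ratios scaling gave 2 that rose and 1 that fell. Over all genes tested, 2389 rose and 2921 fell under that scaling. The test of whether the genotype difference changed between days called ID4 from day 4 to day 8. That was 1 of 10, with 1.11% of all genes called, 0.788% upward. From day 0 to day 4 the test called 0 of 10, with 0.408% of all genes called. For that earlier step, 2 of the 10 and 2913 of the 24248 genes tested had an unadjusted p under 0.05.

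**Figure D2:**
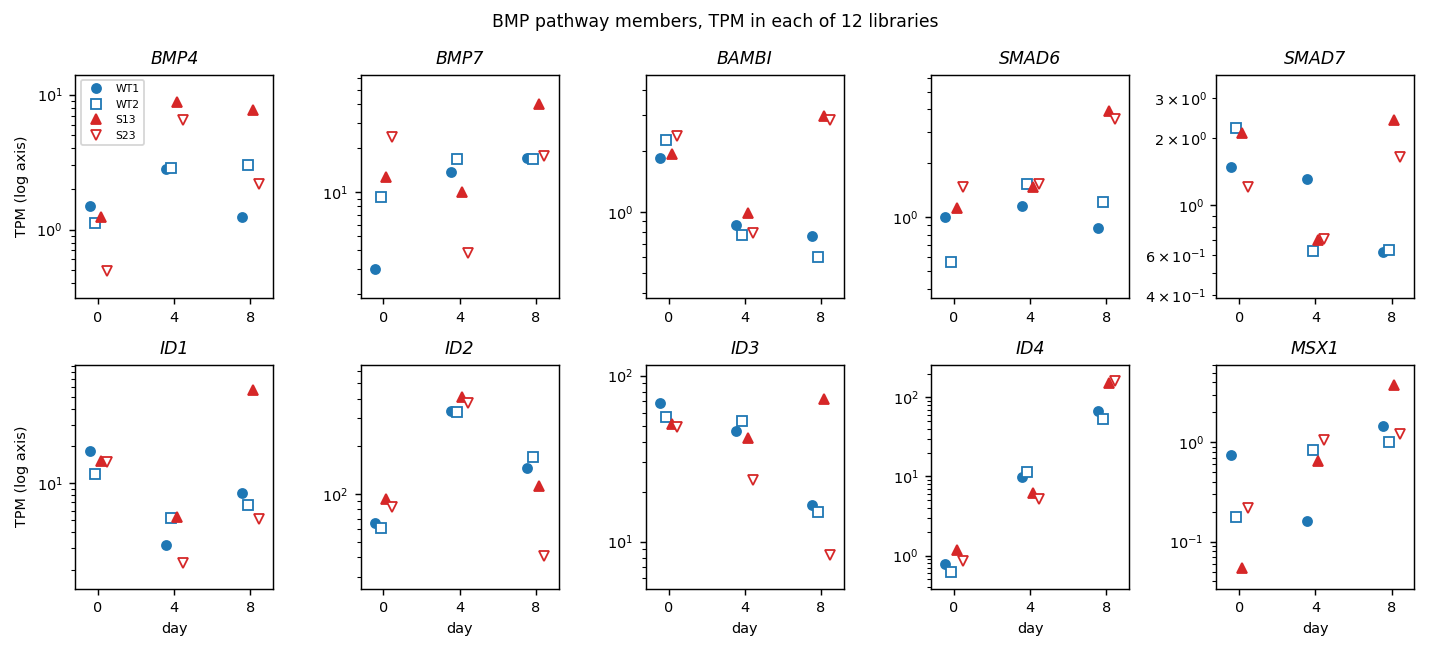
TPM of each of the 10 genes in each of the 12 libraries, by day, on logarithmic axes whose ranges differ between panels; blue symbols are wild type (WT1, WT2) and red ones the libraries labelled SOX21-/- (S13, S23). ID4 rises at each step to 162 TPM, and at day 8 the S13 point of ID1 and ID3 stands far above the other 3.

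BMP4 encodes a ligand that on its own can turn pluripotent cells away from neural fate. It lies at chr14:53949736-53958761 on the minus strand (GRCh38). Day 0 gave 1.505 and 1.11 TPM for wild type, 1.23 for S13 and 0.495 for S23. At day 4 the values were 2.79 and 2.84 in wild type and 8.81 and 6.50 in S13 and S23, and at day 8 they were 1.25, 3.02, 7.67 and 2.17 in the same order. Both SOX21-/- libraries thus lay above both wild-type ones at day 4, and at day 8 only S13 did. BMP4 rose from day 0 to day 4 in the SOX21-/- libraries by 2.23 ± 0.47 (log2, SE; limma adjusted p = 0.00320), and this call also held under median-of-ratios scaling, at 1.497. In wild type the same step was 0.73 and was not called (adjusted p = 0.207). The difference between those steps, 1.501 ± 0.67, missed the threshold (adjusted p = 0.424), as did the genotype difference at day 4, 1.17 (adjusted p = 0.262), and at day 8, 0.80 (adjusted p = 0.474). Fewer cells of a kind and less RNA per cell cannot be told apart in these bulk libraries, here or for any gene that follows.

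BMP7 encodes a second ligand, which can pair with BMP4 in a heterodimer, and lies at chr20:57168748-57266629 on the minus strand. Wild-type day 0 libraries held 3.01 and 9.30 TPM, S13 12.7 and S23 24.1. At day 4 the order turned, with 13.8 and 16.8 TPM in wild type against 10.05 in S13 and 3.84 in S23. At day 8 the values were 17.1 and 16.8 in wild type, 39.9 in S13 and 17.7 in S23. The groups did not overlap at any of the 3 days, above wild type at days 0 and 8 and below it at day 4, yet none of the genotype differences passed the test. They were 1.53 at day 0 (limma adjusted p = 0.732), -1.15 at day 4 (adjusted p = 0.365) and 0.62 at day 8 (adjusted p = 0.680). The change from day 0 to day 4 had an unadjusted p of 0.0106 and an adjusted p of 0.254. BMP7 rose from day 4 to day 8 in the SOX21-/- libraries by 1.92 ± 0.58 (adjusted p = 0.0411). That call was lost without S23 at day 4 (1.32, adjusted p = 0.201), without S13 at day 8 (1.35, adjusted p = 0.203), without any single wild-type library of day 4 or 8 (adjusted p of 0.0589 to 0.0597), and under median-of-ratios scaling (adjusted p = 0.0882), a pseudocount of 0.1 (adjusted p = 0.0533), no filter (0.0759) or only the libraries of the groups compared (0.0754). The SOX21-/- step from day 0 to day 4 was not called, but under median-of-ratios scaling it was -2.47 and called (adjusted p = 0.00837), as it was without S13 at day 4 (-1.94, adjusted p = 0.0370) and with protein-coding genes alone (-1.96, adjusted p = 0.00802), and the wild-type step was called without WT2 at day 0 (2.02, adjusted p = 0.0247). In TPM, BMP7 exceeded BMP4 in 11 of 12 libraries. The exception was S23 at day 4, where the ratio of BMP7 to BMP4 was 0.591.

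BAMBI, at chr10:28677342-28682939 on the plus strand, was low throughout. Day 0 gave 1.83 and 2.25 TPM for wild type, 1.93 for S13 and 2.36 for S23, and the values were 0.863, 0.772, 0.993 and 0.787 in that order at day 4. At day 8 wild type stayed at 0.759 and 0.602, while S13 held 2.96 and S23 2.83. In deposited TPM, both SOX21-/- libraries of that day lay near the day 0 level and both wild-type libraries near the day 4 level. On protein-coding genes alone, S13 and S23 held 3.42 and 4.19 at day 0 and 3.43 and 3.33 at day 8. The likeness to day 0 depends on the scale. The median-of-ratios factors, by which TPM is divided, were 0.541 and 0.518 for S13 and S23 at day 0 and 1.51 and 1.45 at day 8. BAMBI fell from day 0 to day 4 by 0.74 ± 0.18 in wild type (limma adjusted p = 0.00672) and by 0.73 ± 0.18 in the SOX21-/- libraries (adjusted p = 0.00768), against a median gene that moved up. It then rose by 1.05 in the SOX21-/- libraries (adjusted p = 0.00502, and 0.0600 with only the libraries of the groups compared), and the wild-type step of -0.11 was not called (adjusted p = 0.767). The genotype difference at day 8 was 1.21 ± 0.18 (adjusted p = 0.0134). Without any 1 of the 4 day 8 libraries the adjusted p ran from 0.0524 to 0.0978, with the difference between 1.15 and 1.28. With a pseudocount of 0.1 the difference was 1.95 and was called (adjusted p = 0.0150). The change of the difference from day 4 to day 8, 1.16, missed the threshold (adjusted p = 0.0810). The 3 GGCGCC motifs printed above belong to this gene.

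SMAD6, an inhibitory SMAD that acts mainly on BMP receptors, lies at chr15:66702228-66782848 on the plus strand. Day 0 gave 1.01 and 0.565 TPM in wild type and 1.13 and 1.48 in S13 and S23. Day 4 gave 1.16, 1.53, 1.48 and 1.54 in the same order, with all 4 libraries close together. By day 8 wild type held 0.869 and 1.22 TPM, S13 3.90 and S23 3.53, with a gap between the genotypes. The day 8 difference was 1.21 ± 0.21 (limma adjusted p = 0.0235), and it was not called without any 1 of the 4 day 8 libraries (adjusted p of 0.0890 to 0.107), with a pseudocount of 0.1 (adjusted p = 0.0510) or under median-of-ratios scaling (adjusted p = 0.0627). SMAD6 rose from day 4 to day 8 in the SOX21-/- libraries by 0.91 (adjusted p = 0.0153), a call lost without S13 at day 4 (0.0617), S13 at day 8 (0.0665) or S23 at day 8 (0.0510), as adjusted p, with only the libraries of the groups compared (0.0721) and under median-of-ratios scaling (0.0734). The overlapping sense gene AC013564.1 was listed at 0 in 11 of 12 libraries.

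SMAD7, which restrains both BMP and TGF-beta receptors, lies at chr18:48919853-48952052 on the minus strand. It ran from 1.21 to 2.21 TPM at day 0 and from 0.626 to 1.31 at day 4. At day 8 wild type held 0.618 and 0.632 TPM, S13 2.39 and S23 1.65. The SOX21-/- libraries lay above wild type at day 8 as for BAMBI and SMAD6, but the difference of 0.88 ± 0.27 did not pass (limma adjusted p = 0.140, unadjusted p = 0.0106). The SOX21-/- step from day 4 to day 8, 0.81, was not called either (adjusted p = 0.0573), but was with protein-coding genes alone (0.88, adjusted p = 0.0311). All 3 inhibitor genes of the set thus lay above wild type without overlap at day 8, as did 21.4% of all genes tested. Of these 3, 2 were called, where 1.47% of all genes were called higher. The wider list of 10 intracellular and membrane inhibitors, which holds these 3, had a median difference of 0.11 at day 8, with 2 called higher and 1 lower.

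ID4, at chr6:19837386-19840684 on the plus strand with 1 annotated transcript of 3 exons, moved furthest. Its product is an ID protein known from neural progenitors and glial precursors. It stood at 0.778 and 0.612 TPM in wild type and 1.17 and 0.842 in S13 and S23 at day 0, and at 9.86 and 11.5 in wild type and 6.22 and 5.16 in S13 and S23 at day 4. At day 8 wild type held 67.4 and 53.9 TPM, S13 150.3 and S23 162. The SOX21-/- libraries were therefore below wild type at day 4 and above it at day 8, without overlap on either day, and the 2 libraries of each group lay close together. The steps of wild type were 2.78 ± 0.16 (limma adjusted p = 1.55e-06) and 2.39 ± 0.16 (adjusted p = 0.000210). Those of the SOX21-/- libraries were 1.74 ± 0.16 (adjusted p = 2.45e-05) and 4.56 ± 0.16 (adjusted p = 8.04e-06), and all 4 calls held under median-of-ratios scaling.

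The ID4 difference between genotypes was -0.81 ± 0.16 at day 4 (limma adjusted p = 0.0737, not called) and 1.36 ± 0.16 at day 8 (adjusted p = 0.00529). At day 8 it was between 1.20 and 1.52 with each library left out, and the call was lost without WT2 at day 8, by a narrow margin (1.20, adjusted p = 0.05003). The change of the difference from day 4 to day 8 was 2.16 ± 0.23 (adjusted p = 0.00911), and it was called with each of the 12 libraries left out (adjusted p of 0.0198 to 0.0461). The deposited counting is not stated to use strand, so reads of ID4 and of its antisense neighbour AL022068.1 cannot be told apart where they overlap. AL022068.1 stood at 4.36 and 1.25 TPM in wild type at day 8 and at 10.3 and 9.55 in S13 and S23, well under ID4 in each.

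ID2, at chr2:8678845-8684453 on the plus strand, was the most abundant of the 10 genes at days 4 and 8 in wild type. At day 0 wild type held 65.8 and 60.6 TPM, S13 92.5 and S23 83.2. Day 4 brought 335 and 332 TPM in wild type, 409 in S13 and 375 in S23. By day 8 the levels were 145 and 171 in wild type, 112 in S13 and 40.5 in S23. The SOX21-/- libraries lay above wild type at days 0 and 4 and below it at day 8, with no overlap at any day. ID2 rose from day 0 to day 4 by 2.38 ± 0.37 in wild type (limma adjusted p = 0.000457) and by 2.15 ± 0.37 in the SOX21-/- libraries (adjusted p = 0.000951). Under median-of-ratios scaling these steps were 0.96 and 0.93 and were not called (adjusted p = 0.0505 and 0.0571). With the filter also set on the scaled values, the wild-type step was called and the other was not (adjusted p = 0.0552). It fell from day 4 to day 8 by 2.52 ± 0.37 in the SOX21-/- libraries (adjusted p = 0.00229), and the wild-type step of -1.08 was not called (adjusted p = 0.0964), though it was without S13 or S23 at day 8 (adjusted p = 0.00195 and 0.00190). The genotype difference at day 8, -1.21 ± 0.37, was not called (adjusted p = 0.138). Without S13 at day 8 it was -1.93 and called (adjusted p = 0.00150). The antisense gene ID2-AS1 ran from 0.233 to 5.69 TPM.

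ID1 and ID3 are the members of the family most often used as a readout of BMP receptor activity. ID1, at chr20:31605283-31606515 on the plus strand, stood at 18.3 and 12.01 TPM in wild type, 15.1 in S13 and 14.9 in S23 at day 0, and between 2.25 and 5.35 in the 4 libraries of day 4. At day 8 it stood at 8.30 and 6.73 TPM in wild type, 57.2 in S13 and 5.11 in S23. ID3, at chr1:23557918-23559794 on the minus strand, ran from 49.1 to 68.3 TPM at day 0 and from 23.4 to 53.3 at day 4. At day 8 it held 16.7 and 15.1 TPM in wild type, 72.8 in S13 and 8.34 in S23. For both genes S13 at day 8 was the highest and S23 the lowest of the 4 libraries, on either side of wild type. limma called neither gene at any day or step. The fit uses 1 spread per gene over all 12 libraries, so the day 8 gap between S13 and S23 widened the SE of every comparison. In wild type, ID1 changed by -1.64 ± 0.87 from day 0 to day 4 (adjusted p = 0.128). ID3 changed by -1.58 ± 0.77 from day 4 to day 8 there (adjusted p = 0.227). A step that was not called is thus not shown to be absent. The day 8 differences were 1.15 ± 0.87 for ID1 (adjusted p = 0.588) and 0.64 ± 0.77 for ID3 (adjusted p = 0.770). Without S13 at day 8 they turned to -0.47 and -0.86, and without S23 at day 8 they became 2.78 and 2.13 and were called (adjusted p = 0.0446 and 0.0344), so the sign for these genes depended on 1 library. Without S23 at day 8 the later SOX21-/- step of ID1 was also called (3.68, adjusted p = 0.00452).

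The makeup of the ID family changed with time. Summed over ID1 to ID4, the level ran from 130 to 160 TPM at day 0 and from 394 to 463 at day 4, and at day 8 it was 238 and 247 in wild type, 392 in S13 and 216 in S23. This sum depends on the scaling of a library. The median-of-ratios factors, by which TPM is divided, ran from 0.516 to 0.541 at day 0 and from 1.21 to 1.41 at day 4. A rise of the sum from day 0 to day 4 was therefore not shown apart from that shift. ID2 and ID3 together made up the larger part at day 0, and ID2 alone made up 82.6% to 92.4% of the sum at day 4. At day 8 ID4 made up 28.4% and 21.9% in wild type, 38.3% in S13 and 75.0% in S23. The ratio of ID4 to ID2, which does not depend on the scaling of a library, was 0.464 and 0.316 in wild type at day 8, 1.34 in S13 and 4.00 in S23, and at day 4 it was 0.0294 and 0.0347 in wild type, 0.0152 in S13 and 0.0138 in S23. ID4 thus exceeded ID2 in both SOX21-/- libraries of day 8 and in none of the other 10 libraries. Set against the summed E proteins TCF3, TCF4 and TCF12, the ID sum came to 0.184 to 0.241 at day 0, 0.693 to 0.950 at day 4, and 0.545 and 0.566 in wild type, 0.843 in S13 and 0.517 in S23 at day 8.

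**Figure D3:**
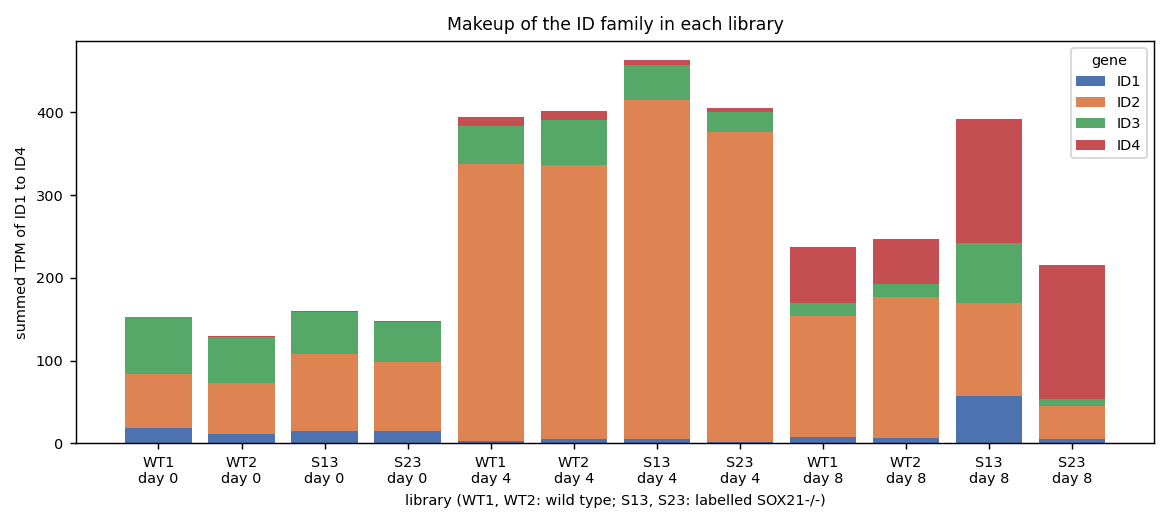
Summed TPM of ID1, ID2, ID3 and ID4 in each of the 12 libraries, stacked by gene. ID2 fills most of each day 4 bar (82.6% to 92.4%), and at day 8 the ID4 part is 38.3% in S13 and 75.0% in S23 against 28.4% and 21.9% in wild type.

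MSX1, at chr4:4859666-4863936 on the plus strand, encodes a homeobox factor of the dorsal neural tube and a common BMP target. It was near the detection filter: 0.743 and 0.176 TPM in wild type, 0.0540 in S13 and 0.215 in S23 at day 0, and 0.160, 0.831, 0.652 and 1.05 in that order at day 4. At day 8 it stood at 1.46 and 0.993 TPM in wild type, 3.76 in S13 and 1.19 in S23. S13 at day 8 was again the highest library, and the other 3 lay close together. No comparison called MSX1, and its day 8 difference of 0.54 ± 0.40 (limma adjusted p = 0.584) was -0.013 without S13.

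The 2 libraries labelled SOX21-/- differed from each other at day 8 in most of these genes. Of the 10, 6 were at least 2-fold higher in S13 than in S23 on the log2(TPM + 1) scale and 0 were at least 2-fold lower, where 4.75% of all genes tested were that much higher and 5.04% that much lower. In TPM, ID1 was 11.2 times higher in S13, ID3 8.73 times, BMP4 3.53 times, MSX1 3.14 times, ID2 2.76 times and BMP7 2.26 times. The 3 genes called between genotypes were among the 4 less than 2-fold apart, with ratios of S13 to S23 of 1.05 for BAMBI, 1.11 for SMAD6 and 0.928 for ID4. A call needs a small spread within groups, so genes far apart between S13 and S23 could hardly be called. This likeness is therefore no added support for the calls. The median gap of the 10 genes was 1.12, where that of all genes was 0.0040. WT1 and WT2 at day 8 differed by 2-fold in 0 of the 10, with backgrounds of 5.36% and 5.15%. At day 4, S13 was at least 2-fold above S23 in 1 of the 10, BMP7 (4.59% of all genes), and below it in 0 (5.76%), and at day 0 it was above in 0 (3.2%) and below in 0 (3.01%). WT1 was 2-fold below WT2 at day 0 for BMP7 alone (3.25% of all genes) and above for 0 (3.12%), and at day 4 it was above for 0 (4.74%) and below for 0 (4.6%). With 1 library on each side these gaps have no test, and they compare 2 libraries and not 2 conditions.

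**Figure D4:**
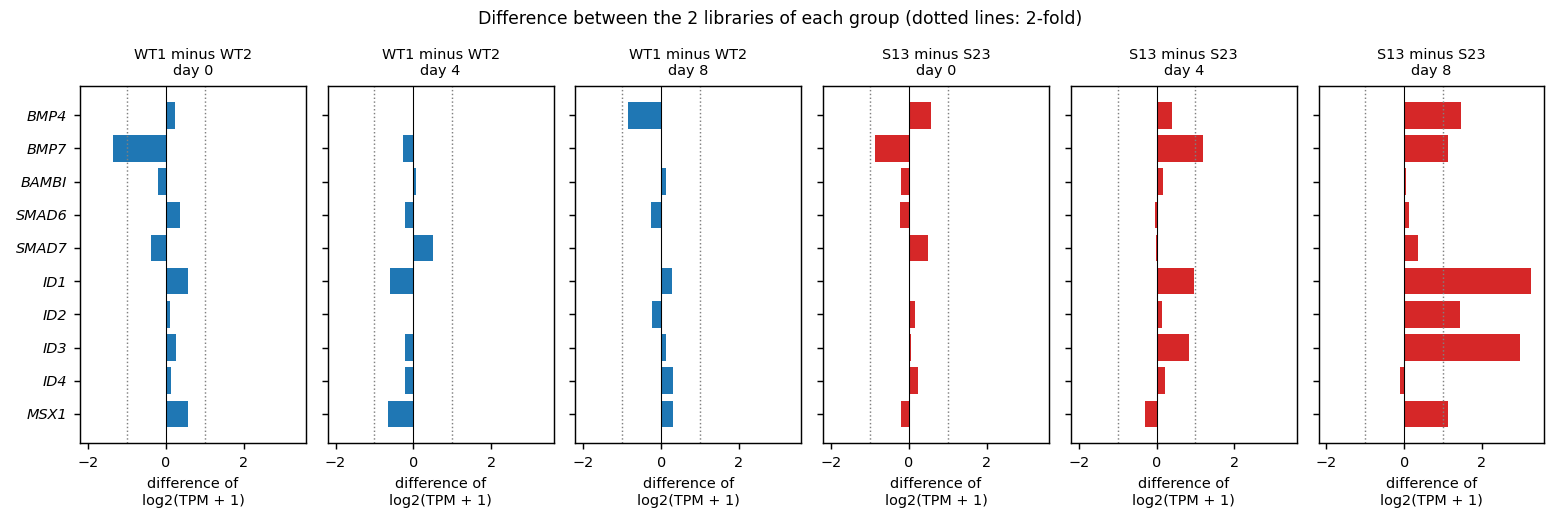
Difference between the 2 libraries of each group, WT1 minus WT2 in blue and S13 minus S23 in red, for each of the 10 genes at each day on the log2(TPM + 1) scale; dotted lines mark 2-fold. In the S13 minus S23 panel of day 8, 6 bars pass the right-hand line and none the left, led by ID1 (3.25) and ID3 (2.98).

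Markers of other cell types were set beside this gap, and their part in it was not tested. Of 8 dorsal midline genes tested, 4 were at least 2-fold higher in S13 than in S23 at day 8 and 0 lower: MSX1, LMX1A (6.13 against 2.28 TPM), ZIC1 (6.83 against 0.829) and RSPO3 (3.21 against 0.402). GDF7, a roof plate ligand, stood at 3.99 TPM in S13, at 0.0710 in S23 and at 0.0588 and 0.0920 in wild type, and WNT1 at 2.50 in S13 and 0.129 in S23, both below the filter. Of 6 neural crest genes tested, SNAI2 and PAX3 were 2-fold higher in S13 and 0 were lower, while SOX10, the defining crest factor, was below 1 TPM in all 4 libraries of day 8, at 0.747 in S13, 0.392 in S23 and 0.0861 and 0.151 in wild type. TFAP2B, below the filter, stood at 0.428 TPM in S13, at 0.0141 in S23 and was listed at 0 in wild type, so both were highest in S13. Of 7 amnion, surface ectoderm and trophoblast genes tested, TFAP2A and KRT7 were 2-fold higher in S13 than in S23, with ISL1 and HAND1 listed at 0 at day 8. TFAP2A stood at 2.64 TPM in S13, 0.187 in S23, and 0.242 and 1.96 in wild type. WT1 was also at least 2-fold below WT2 in 2 of these 7 genes at day 8, so this list gave no gap particular to S13 and S23. Pluripotent cell markers gave 0 of 9 and neural progenitor markers 0 of 10 that differed by 2-fold. Summed over the whole list, the dorsal midline genes reached 38.8 and 67.3 TPM in wild type at day 8, 44.3 in S13 and 20.3 in S23, with S13 above S23 and between the wild-type libraries. ZIC1 and ZIC4 held most of the wild-type sum: ZIC1 stood at 22.995 and 46.3 TPM and ZIC4 at 8.01 and 13.2 there, against 6.83 and 3.49 in S13.

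The rest of the pathway was described from lists of its parts. Between genotypes limma called 0 of 6 ligand genes, 0 of 10 receptors and co-receptors and 0 of 6 SMAD transducers at each day. Over all genes, 0.384%, 0.775% and 2.79% were called at days 0, 4 and 8. At an unadjusted p under 0.05, the ligands gave 1, 2 and 0 at these days, the receptors 2, 3 and 3, and the transducers 0, 0 and 1. Of the 24248 genes tested, 1425, 4107 and 3944 had such a p. At day 8, 1 of 13 secreted antagonists and modulators tested was called. FST, which encodes follistatin, a protein that binds activins and some BMPs, stood at 5.30 and 4.31 TPM in wild type, 31.1 in S13 and 28.3 in S23. Both SOX21-/- libraries were well above wild type, and FST was higher by 2.41 ± 0.30 (limma adjusted p = 0.00617), a call lost without WT2 at day 8 (2.28, adjusted p = 0.0588). NOG and CHRD, which encode the classical antagonists noggin and chordin, were not called between genotypes at any day. Among 10 intracellular and membrane inhibitors, SKIL was lower at day 8 beside the higher BAMBI and SMAD6, at 5.50 and 5.64 TPM in wild type, 1.34 in S13 and 2.31 in S23 (-1.24, adjusted p = 0.0496). That SKIL call was lost without most single libraries (10 of 12) and under median-of-ratios scaling (adjusted p = 0.0724). BMP2, another ligand gene, held 2.64 and 2.10 TPM in wild type at day 8, 8.98 in S13 and 2.30 in S23, so it too was high in S13 alone.

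Over the step from day 0 to day 4, most receptors and transducers rose, in a step where 54.3% of all genes rose in wild type and 48.1% in the SOX21-/- libraries. In wild type 9 of 10 receptors and co-receptors rose and 0 fell, led by RGMA (3.53), RGMB (2.86) and ACVR2B (2.63), and in the SOX21-/- libraries 7 of 10 rose. Of 6 SMAD transducers 5 rose in each genotype, with SMAD2 at 2.19 and SMAD4 at 2.13 in wild type. Among 13 secreted antagonists 8 rose in wild type and 6 rose and 1 fell in the SOX21-/- libraries, shares near those of all genes. TWSG1, which modulates BMP binding, rose by 3.20 and FST by 2.66 in wild type. Much of this moved with the scale: under median-of-ratios scaling 5 receptors rose and 2 fell in wild type, 4 rose and 3 fell in the SOX21-/- libraries, and 3 SMAD transducers rose and 1 fell in each. Of all 24248 genes tested, 5583 rose and 6560 fell in wild type under that scaling, and 5407 rose and 6363 fell in the SOX21-/- libraries. From day 4 to day 8 in wild type, limma called 0 receptors and 0 transducers, where 12.6% of all genes were called. An unadjusted p under 0.05 was reached by 2 receptors, 1 transducer and 6748 of the 24248 genes tested. In the SOX21-/- libraries, 19% of all genes rose over that step and 7.15% fell. Among the lists, 3 receptors rose, BMPR2, ACVR1 and NEO1, and 3 transducers rose while SMAD1 fell. Under median-of-ratios scaling these counts were 2 receptors up and 1 down, and 0 transducers up and 1 down, with 2389 up and 2921 down over all genes tested.

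Some genes followed the same course as a BMP gene over the 12 libraries, given by Pearson's r of log2(TPM + 1) as a description, since libraries of 1 group share their day and genotype. Among 12629 genes with a mean TPM of at least 5, those most like ID4 were COL9A2 (0.996), KIRREL2 (0.994) and NRARP (0.991). For ID2 they were MYCN (0.970), NLE1 (0.968) and PSMB5 (0.966). SMAD6 was most like RMST (0.932), BAMBI like RND1 (0.912), BMP4 like KIF9 (0.955), BMP7 like EGLN1 (0.844), ID1 like PTPMT1 (0.906), SMAD7 like CAAP1 (0.906) and MSX1 like ENDOG (0.896). None of the genes named here was another of the 10.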

How the data were processed

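The deposited table gave TPM per gene for 58219 genes in 12 libraries. The authors' tools were Salmon 0.8.2 and CASAVA 1.7, with build hg38, per the submitters' processing notes. RNA was isolated with TRIzol and enriched for poly(A) tails, per the labels' protocols, which name 3 sequencers without assigning them to libraries. Annotation release, strand use and read depth are not given in the sources used here, and TPM keeps no depth, so no counting interval can be given. The table held 0 columns of other series.

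Testing covered the 24248 genes that reached 1 TPM in 2 or more libraries. limma 3.58.1 in R 4.3.3 was run on log2(TPM + 1), with group means estimated from all 12 libraries together, 6 residual and 2.29 prior degrees of freedom and a variance trend. Tests were two-sided, and p-values were adjusted by Benjamini-Hochberg over the genes of a comparison. The comparisons were genotype at each day, both day steps in each genotype, and the change of the genotype difference over each step. On simulated data with 24248 genes and the day 8 comparison, 4%, 40%, 70% and 96% of genes changed by 0.5, 1, 2 and 4 (log2) were called, with 7 false calls. The simulated noise was normal and independent, with the same spread for a gene in all groups. These rates therefore do not cover genes whose spread differs between groups.

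The 10 genes and the 15 lists of pathway genes and markers (148 genes, all matched, 1 through its identifier) were chosen with earlier results of these data known. Named were the 10 genes, every list gene called in a genotype comparison, at most the 4 largest changes each way per list at a day step, and the 3 genes most like each of the 10. A gene that met this rule is not reported here. Genes that stood at least 2-fold apart between S13 and S23 were named after their values were seen. Median-of-ratios scaling was first run with the filter on the scaled values. After those values had been seen it was changed to keep the genes tested as in the deposited TPM, so that only the scaling differed, and the first version is given as an alternative added after seeing the data. Gene locations came from GENCODE v29 on GRCh38 and promoters from RefSeq on GRCh38.p14. A comparison of the ID and SMAD protein sequences was not made here.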

Additional observations from a re-analysis of the deposited data

Results flagged for a closer look

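For 5 genes of the 10 or of the pathway and marker lists, limma called a change of the genotype difference between days, which is a test of the difference itself. For ID4 the change from day 4 to day 8 was 2.16 (adjusted p = 0.00911), from a difference of -0.81 to 1.36. NEO1, a co-receptor gene, changed by 1.04 over that step (adjusted p = 0.0386), and GSC, a mesendoderm marker, by -3.16 (adjusted p = 0.0199). From day 0 to day 4, LHX2, a neural progenitor marker, changed by -1.86 (adjusted p = 0.0274), and NGFR, a neural crest marker, by -1.71 (adjusted p = 0.0482). The calls of NEO1, GSC, LHX2 and NGFR were lost without 9, 5, 9 and 11 of the 12 libraries, each left out alone. ID4 kept its call with each of the 12 left out.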

How the results depend on the processing

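Over 12 fits that each left out 1 library, the 10 BMP genes gave 0 to 3 calls at day 8, 3 to 4 for wild type and 4 to 5 for SOX21-/- from day 0 to day 4, 1 to 3 and 4 to 6 from day 4 to day 8, and 1 to 2 for the change from day 4 to day 8. At day 8 the count was 1 without WT1 and 0 without WT2 of that day. Where such a fit left a group with 1 library, that library was assumed to vary like the other groups. Over the same fits the genes called ranged from 59 to 114, 14 to 191 and 170 to 774 for genotype at days 0, 4 and 8, 14255 to 16005 and 1038 to 3188 for the wild-type steps, 12935 to 14688 and 3634 to 6162 for the SOX21-/- steps, and 38 to 80 and 54 to 242 for the changes. The day 8 differences ranged from -0.47 to 2.78 for ID1, -0.86 to 2.13 for ID3 and -0.013 to 1.10 for MSX1. With only the libraries of the groups compared, day 8 gave 0 of the 10 and 34 genes in all, against 3 and 676; day 0 gave 45 genes against 93 and day 4 gave 0 against 188. In wild type that setting gave 5 of the 10 for the early step, from day 0 to day 4, and 3 for the later one, and it gave 2 of the 10 with 3526 genes for the later SOX21-/- step against 5 and 6336. The changes gave 53 and 45 genes, against 99 and 270. Protein-coding genes alone gave 8 genes at day 0, 5 of the 10 and 10499 genes (against 15931) for the early wild-type step, 7 of the 10 for the early SOX21-/- step, and 26 genes for the early change. Median-of-ratios scaling gave 153 genes at day 0, 115 for the later change, and 7 and 3 of the 10 for the early and later SOX21-/- steps. The same scaling with the filter on the scaled values, the version run first and kept as an alternative added after seeing the data, gave 203, 120 and 112 genes for genotype at days 0 and 4 and the later change, 5 and 7 of the 10 for the early wild-type and SOX21-/- steps, and 3 for the later SOX21-/- step. No filter gave 159 genes at day 0 and 163 for the early change, and a pseudocount of 0.1 gave 154 for the later change. The cause was not tested, except that fits on fewer libraries or genes hold less information on the spread.

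Scaling by median of ratios also moved the split of higher against lower calls: from 58 and 130 to 86 and 41 for genotype at day 4, from 13177 and 2754 to 5583 and 6560 and from 1848 and 1210 to 1178 and 1509 for the wild-type steps, from 11664 and 3024 to 5407 and 6363 and from 4603 and 1733 to 2389 and 2921 for the SOX21-/- steps, and from 41 and 58 to 72 and 52 and from 191 and 79 to 59 and 56 for the changes. Protein-coding genes alone gave 6832 and 3192 for the early SOX21-/- step.

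Labels repeated over days were not shown to pair the libraries: differences between the 2 libraries of a genotype correlated by -0.0060 to 0.0712 over 24248 genes between days. With the line label as a replicate block, the changes gave 22 and 17 genes against 99 and 270, and 0 of the 10 for the later change, where ID4 had an adjusted p of 0.0536. BMP7 was not called for the later SOX21-/- step (adjusted p = 0.0538), and the block ended no other call among the 10 genes. Among single-gene results, 3 reversed with a library left out and 0 under the other settings. Depth is unknown and could not be weighed, and differences of genes near 1 TPM, such as BAMBI and SMAD6, moved most with the pseudocount (1.95 and 1.75 at day 8 with 0.1).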

Other observations

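Of the marker lists, limma called 1 of 10 neural progenitor genes and 3 of 8 dorsal midline genes tested between genotypes at day 8, where 2.79% of all genes were called. Among neural progenitor markers, SIX3, a rostral forebrain factor, was lower in the libraries labelled SOX21-/- at day 4 (-1.77) and at day 8, where it stood at 46.0 and 58.2 TPM in wild type, 12.2 in S13 and 7.79 in S23 (-2.29, limma adjusted p = 0.00189). LHX2 (-1.78) was also lower at day 4. Among dorsal midline genes, ZIC1 (-3.15) and ZIC4 (-1.59) were lower and WNT2B (1.13) was higher at day 8. ZIC1 held 22.995 and 46.3 TPM in wild type at day 8, 6.83 in S13 and 0.829 in S23.

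TGFBR2, a receptor for TGF-beta, was higher at day 8, at 2.13 and 2.25 TPM in wild type, 6.92 in S13 and 8.64 in S23 (1.45, limma adjusted p = 0.00617), and kept its call with each of the 12 libraries left out, but not with only the 4 day 8 libraries (adjusted p = 0.121). IGFBP3 was lower at day 8 (-2.02). At day 4 GSC was higher (1.76) and NGFR lower (-1.39). LMX1A, a roof plate factor, stood at 0.156 and 0.0932 TPM in wild type at day 8 against 6.13 in S13 and 2.28 in S23, and was not called (2.11, adjusted p = 0.0670). With each of the 12 libraries left out alone, the day 8 calls of WNT2B, ZIC1, IGFBP3 and ZIC4 were lost in 10, 9, 4 and 2 fits, and the day 4 calls of GSC, NGFR, SIX3 and LHX2 in 10, 5, 3 and 1. With only the 4 libraries of the day compared, each of these calls but that of IGFBP3 was lost, as was that of SIX3 at day 8.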
